A study of Mus musculus with 9 samples.

Results

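Atf3, the AP-1 genes Jun, Junb, Jund, Fos, Fosb and Fosl2, and the immediate early genes Egr1, Egr2 and Ier2 were followed through leukemia cells of mouse bone marrow. These 10 genes of the 55536 in the expression table were taken by symbol, and each symbol had 1 row. They were chosen from results of this same table, in which several of them had already been seen to differ between the groups, so their levels and differences are given as a description, without p-values.

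AP-1 is a family of dimeric transcription factors in which JUN proteins pair with each other or with FOS proteins through leucine zippers and bind a short palindromic DNA site. Jun, Fos, Egr1 and Ier2 are immediate early genes: a growth factor, a cytokine or a stress switches them on within minutes through factors that already sit on their promoters, without new protein synthesis, and their unstable mRNAs fade soon after. Atf3 is a bZIP factor of the ATF/CREB group that is induced by stress, pairs with JUN proteins and mostly represses. In the myeloid lineage JUN, FOS and EGR1 are known for their part in monocyte and macrophage differentiation.

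The cells came from an acute myeloid leukemia (AML) model in which c-kit+ cells of WT mice or of IRF7-/- mice were transduced with an MSCV retrovirus carrying the MLL-AF9 fusion and GFP. All strains were C57BL/6J, and in the IRF7-/- mice part of Irf7 is replaced by a PGK-beta-geo cassette. GFP+ leukemia cells were given to recipients of 6 to 8 weeks without irradiation, the recipients were killed at day 18, and bone marrow leukemia cells were sorted on c-kit, a receptor that marks primitive cells. The groups, with 3 RNA libraries each, were AML-WT-c-kit- and, of the same WT genotype, AML-WT-c-kit+, both labelled control-GFP overexpression, and AML-IRF7-/--c-kit+ (labelled IRF7-/--GFP overexpression), and no c-kit- population of the IRF7-/- genotype was among the 9 libraries. All groups thus carried MLL-AF9 and GFP. The recipients kept their own marrow, the viral promoter drives the fusion in every transduced cell, and the labels do not say whether the libraries of a group came from separate mice, so spreads and p-values measure the differences between these libraries, which may be technical.

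Kit followed the sort, at 0.52 to 3.03 TPM (a level scaled for transcript length and for the library total) in AML-WT-c-kit- while AML-WT-c-kit+ held 50.7, 58.5 and 51.3 TPM and the AML-IRF7-/--c-kit+ libraries 85.5, 70.3 and 85.7 TPM. Between the c-kit+ groups Irf7 went against the genotype label. It was 12.8, 5.97 and 7.95 TPM across libraries with the label AML-IRF7-/--c-kit+ and 5.31, 3.91 and 3.36 TPM across AML-WT-c-kit+. Across AML-WT-c-kit- Irf7 was 23.5, 22.3 and 32.3 TPM, above every library with the label AML-IRF7-/--c-kit+. A gene-level TPM does not separate the replaced exons from the others. The group is therefore written as libraries with the label AML-IRF7-/--c-kit+, and every direction given for it rests on that label. Markers of mature neutrophils moved with the groups too: the 9 markers summed to 6153 to 30620 TPM across AML-WT-c-kit-, 56725 to 110835 in AML-WT-c-kit+ and 1603 to 2528 in libraries with the label AML-IRF7-/--c-kit+. That sum was carried by S100a8, S100a9, Ngp and Camp, and not every marker kept its order: Mmp8 was 54.8 to 85.1 TPM across AML-WT-c-kit- but 2.63 to 7.4 in AML-WT-c-kit+, and Retnlg was 18.3 to 117 against 4.98 to 14.2 TPM. The 6 monocyte markers summed to 5048 to 6543, 2103 to 2446 and 2474 to 3084 TPM, and the 8 macrophage markers to 69 to 107, 32.7 to 53 and 57.7 to 81.1 TPM. Ly6c2 made up most of the monocyte sum in the c-kit+ groups, where Fn1 went the other way (9.54 to 25.3 TPM across AML-WT-c-kit+ and 1.83 to 3.57 TPM in the remaining group), as did Csf1r (36.1 to 65.5 and 25 to 32.8 TPM). Adgre1 carried the macrophage sum, while C1qa, C1qb and C1qc had their highest means in AML-WT-c-kit+. The 5 megakaryocyte markers summed to 0.8 to 2.57, 9.69 to 11.8 and 9.26 to 13 TPM, the 8 erythroid markers to no more than 18.2 TPM, and the 6 B cell markers to 26.4 to 38.1 TPM over all libraries. None of the 8 T and NK cell markers had a mean of 1 TPM in any group. The part of these cell types in the differences below was not tested, and in bulk RNA a smaller number of expressing cells cannot be told apart from less RNA per cell. The read depth of the libraries is unknown, since TPM keep none.

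The 130 bases just before the transcription start are shown for Atf3, Fos, Fosb and Jun, because their levels span the patterns described below and a searched motif lay in that stretch. They are RefSeq reference sequence of build GRCm38.p6, written 5′ to 3′ on the strand of the gene, with the matched letters in capitals. The last base printed is position -1, next to the RefSeq start. Atf3 (chr1:191183334-191183463, minus strand) and Fosb (chr7:19310046-19310175, minus strand) end in 7 and 6 bases that GENCODE M21 counts as first exon. The GENCODE locus of Atf3 begins further upstream, at 191218039, and that start was not searched. Gene-level TPM do not show which start was used. Fos is chr12:85473760-85473889, plus strand, and Jun is chr4:95052223-95052352, minus strand.
Atf3: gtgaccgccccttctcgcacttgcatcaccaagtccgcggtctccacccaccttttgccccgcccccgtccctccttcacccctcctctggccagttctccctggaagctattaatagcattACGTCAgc
Fos: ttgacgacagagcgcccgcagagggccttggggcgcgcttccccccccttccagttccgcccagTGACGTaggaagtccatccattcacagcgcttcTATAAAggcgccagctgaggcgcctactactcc
Fosb: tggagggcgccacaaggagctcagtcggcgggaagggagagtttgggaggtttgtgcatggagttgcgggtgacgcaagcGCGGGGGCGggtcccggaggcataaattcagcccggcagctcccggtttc
Jun: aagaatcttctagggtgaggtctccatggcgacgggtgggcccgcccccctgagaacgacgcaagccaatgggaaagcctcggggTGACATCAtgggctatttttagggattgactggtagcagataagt

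In Atf3 the capitals are the core of the cAMP response element (TGACGT, read on the other strand), at positions -8 to -3. In Fos they are the same core at -66 to -61 and a TATA box (TATAAA) at -33 to -28. In Jun they mark TGACATCA, a variant of the AP-1 site that JUN-ATF dimers are known to bind, at -45 to -38. In Fosb they mark an EGR site (GCGNGGGCG) at -50 to -42. The motifs were chosen after the windows had been seen, both strands were searched, and each search covered 250 bases before to 50 after the start. Of the 10 members 8 were in the promoter table, with 12 windows because Egr2 has several starts. The core TGACGT was in 7.51% of all 32851 windows, TATAAA in 13.6%, TGACATCA in 3.62% and GCGNGGGCG in 5.55%. The full element TGACGTCA, which contains the core and was in 1.79% of all windows, was in none of the 12, and neither was the AP-1 site TGANTCA (7.81%). A CArG box, the core of the serum response element, was in 4 of the 12 windows, all of Egr2 and 3 of them overlapping, and in 1.63% of all windows. The IRF-type letters GAAANNGAA (8.56% of all windows) were found for Fosl2, Jund and Egr2. A match is only a string of letters, and a missing match says only that these letters are not in this window.

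**Figure D1:**
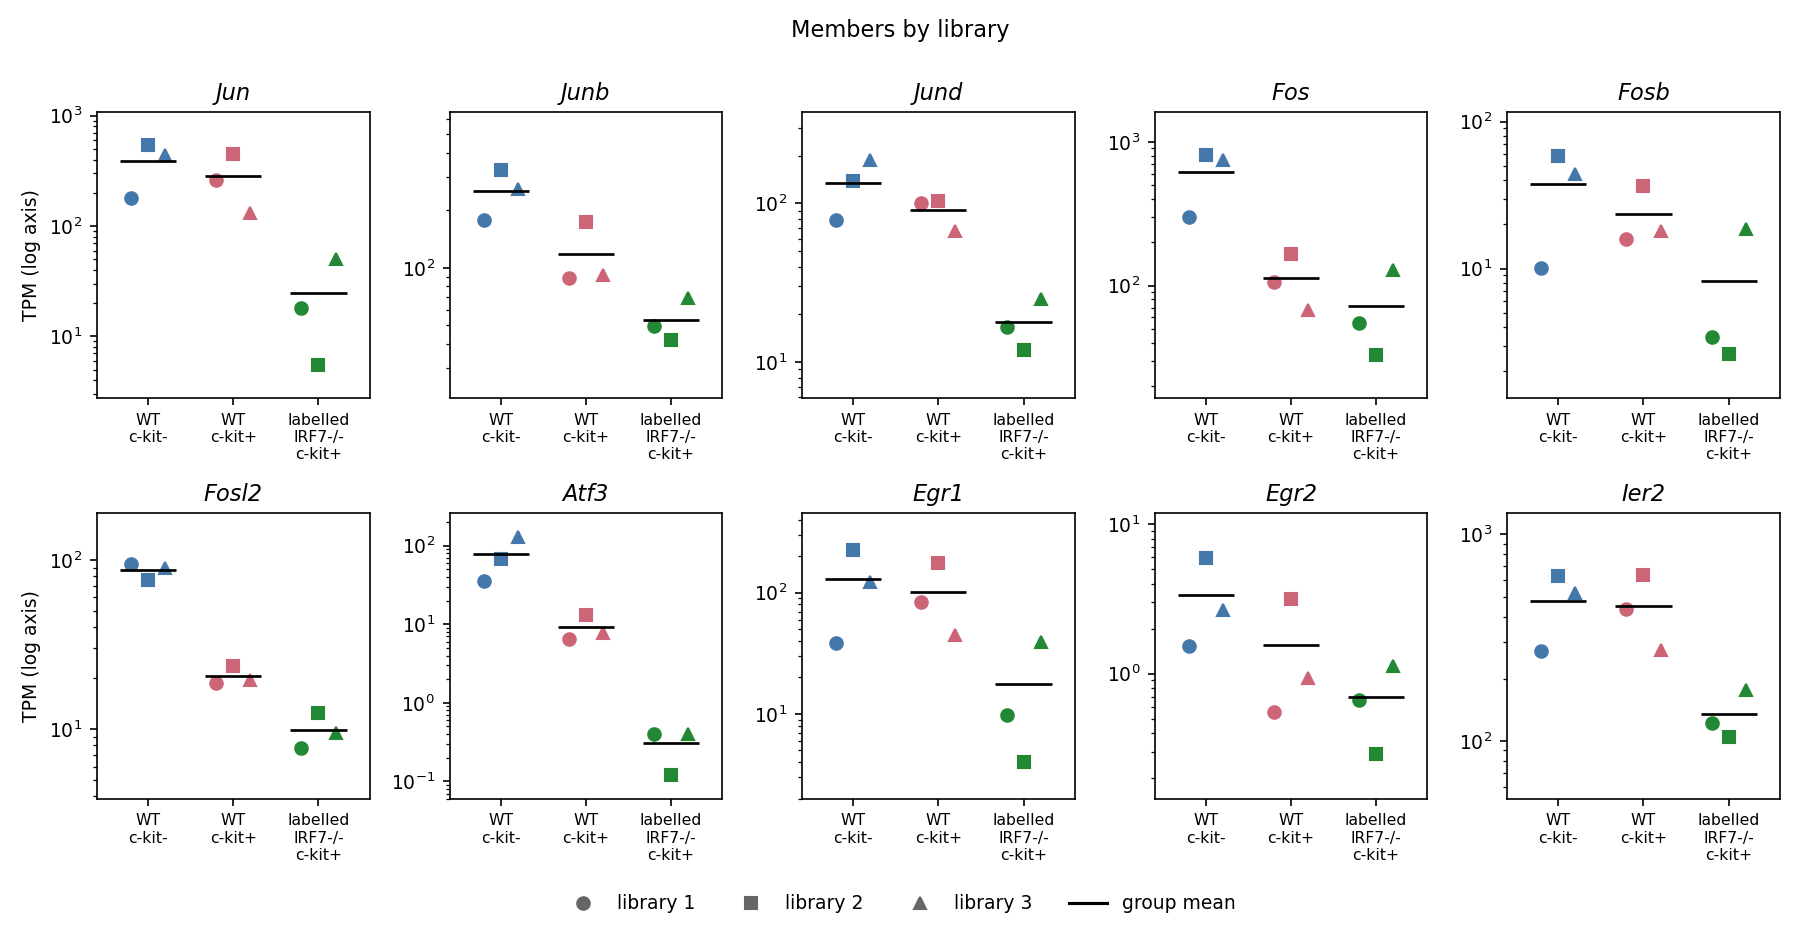
TPM of the 10 members (y axes, log scale, each panel with its own range) in the 3 groups (x axis), with libraries 1, 2 and 3 as circle, square and triangle and the group mean as a line. The libraries labelled AML-IRF7-/--c-kit+ sit lowest for Jun, Junb, Jund, Fosl2, Atf3 and Ier2, with Atf3 at 0.12 to 0.4 TPM.

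Mean levels of 10 of the 10 members were lower in libraries with the label AML-IRF7-/--c-kit+ than in AML-WT-c-kit+, and the same was true of AML-WT-c-kit+ against AML-WT-c-kit-. Every gene thus had its highest mean in AML-WT-c-kit- and its lowest in libraries with the label AML-IRF7-/--c-kit+. The size of the 2 steps differed among the genes. Below, a gene is called when its difference in log2(TPM + 1) is at least 1 in size with a Benjamini-Hochberg adjusted p under 0.05 by limma over all genes tested, namely those with 1 TPM or more in at least 3 of the 6 libraries compared.

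Between the c-kit+ groups 9 of the 10 members were tested, and 6 were called lower in libraries with the label AML-IRF7-/--c-kit+ and 0 higher (8 of 9 were lower at an unadjusted p under 0.05, and 0 higher). Of all 13238 genes tested, 5.39% were called lower and 6.3% higher. In 7 members every library of the first group lay below every library of the second, as in 20.1% of all genes tested. Between the WT populations 10 members were tested, 4 were called lower and 0 higher, 4 were lower at an unadjusted p under 0.05 and 0 higher, and 4 were lower without overlap. The shares of all 13261 genes there were 9.61% called lower, 4.83% called higher and 34.7% lower without overlap. When libraries with the label AML-IRF7-/--c-kit+ were set against AML-WT-c-kit-, 9 of 10 members were called lower and 0 higher, 10 were lower at an unadjusted p under 0.05 and 0 higher, and 8 did not overlap, beside 11.9%, 8.4% and 32.4% of all genes. The comparisons share libraries and the members were chosen on them, so nothing is read from these counts. Atf3 passed the filter in both comparisons of libraries with the label AML-IRF7-/--c-kit+ only through the group where it is high, and Egr2 did not pass it between the c-kit+ groups. The count of 6 between the c-kit+ groups was 3 without AML-WT-c-kit+ library 2, where Junb and Egr1 were no longer called and Atf3 was not tested. With any AML-WT-c-kit+ library left out, Atf3 reached 1 TPM in too few libraries to be tested. The median of all genes tested stood at 0.12 on the log2 scale between the c-kit+ groups, so the members' differences lie that much further from the bulk of genes than from 0. It was -0.08 between the WT populations and 0.03 when libraries with the label AML-IRF7-/--c-kit+ were set against AML-WT-c-kit-.

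**Figure D2:**
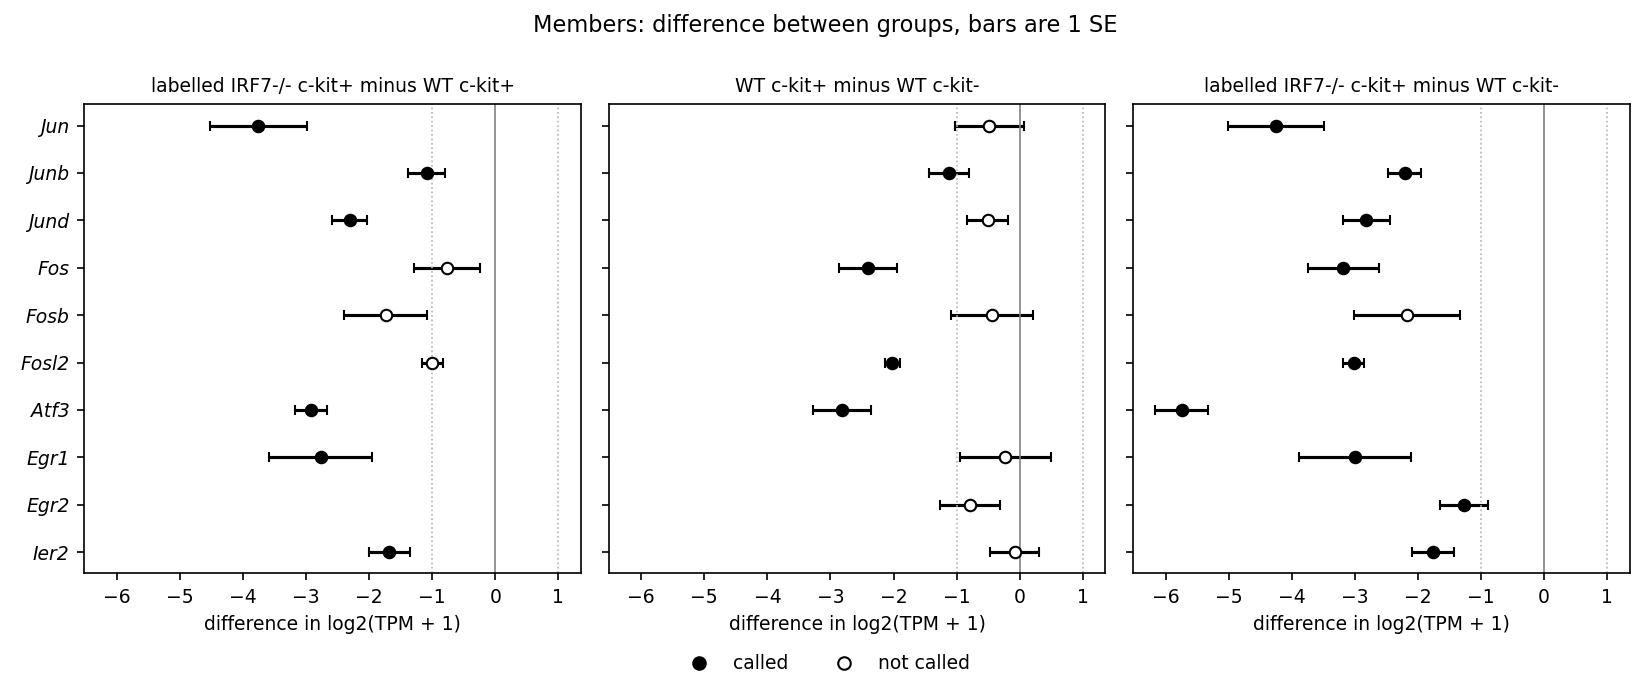
Difference in log2(TPM + 1) between groups (x axis; bars are 1 SE of limma from 3 libraries against 3; dotted lines at -1 and 1) for each member (y axis), with called genes as filled points. Jun (-3.76), Jund (-2.31), Egr1 (-2.77) and Ier2 (-1.68) have their larger step between the c-kit+ groups, Fos (-2.41) and Fosl2 (-2.02) between the WT populations, and Atf3 has steps of -2.92 and -2.82; Egr2 was not tested between the c-kit+ groups.

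Atf3 had the widest range of the members. Its level was 36, 68.5 and 130 TPM across AML-WT-c-kit-, 6.56, 13.2 and 7.85 TPM across AML-WT-c-kit+, and 0.4, 0.12 and 0.4 TPM across libraries with the label AML-IRF7-/--c-kit+. No library of one group reached the range of another. The group means were 78.2 ± 47.7, 9.19 ± 3.5 and 0.307 ± 0.162 TPM (SD, n = 3). Between the c-kit+ groups the difference in log2(TPM + 1) was -2.92 (SE 0.25), and between the WT populations it was -2.82 (SE 0.46). The added 1 TPM compresses the first of these, since the ratio of mean TPM was 30, against 8.5 for the second. With 0.1 TPM added in its place the first difference was -4.55. At levels of 0.12 to 0.4 TPM the ratio is loosely determined. Atf3 lies at chr1:191170296-191218039 on the minus strand (GRCm38), and the small RNA gene Gm24748 overlaps its locus on the other strand.

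Jun and Jund had their larger difference between the c-kit+ groups, and Junb had steps of like size. Jun encodes the founding member, a strong activator that homodimerizes or pairs with FOS proteins. Jun stood at 180, 539 and 442 TPM across AML-WT-c-kit-, 262, 454 and 132 TPM across AML-WT-c-kit+, and 17.9, 5.54 and 50.5 TPM across libraries with the label AML-IRF7-/--c-kit+. The WT groups overlapped over most of their ranges, and all 3 libraries labelled AML-IRF7-/--c-kit+ lay below both. The log2 difference was -3.76 (SE 0.77) between the c-kit+ groups, where the mean TPM differed by a ratio of 11.5, and -0.48 (SE 0.55, not called) between the WT populations. Among libraries with the label AML-IRF7-/--c-kit+, Jun differed by a ratio of 9.11 between library 3 and library 2. Jun is a single-exon gene at chr4:95049034-95052222 on the minus strand.

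Jund, a JUN protein that is usually expressed steadily and activates more weakly, kept the same order with less spread. Its levels were 78.6, 139 and 188 TPM across AML-WT-c-kit-, 101, 103 and 67.2 TPM across AML-WT-c-kit+, and 16.6, 11.9 and 25.1 TPM across libraries with the label AML-IRF7-/--c-kit+. The WT groups overlapped again, and the remaining group lay below both. The log2 differences were -2.31 (SE 0.28) between the c-kit+ groups and -0.51 (SE 0.33, not called) between the WT populations. Jund lies at chr8:70698949-70700616 on the plus strand.

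Junb, a JUN protein known to restrain proliferation of myeloid progenitors, fell less far and in even steps. Junb was at 178, 326 and 257 TPM across AML-WT-c-kit-, 89, 174 and 91.8 TPM across AML-WT-c-kit+, and 49.4, 41.8 and 69.3 TPM across libraries with the label AML-IRF7-/--c-kit+. The groups did not overlap, although library 2 of AML-WT-c-kit+ came close to the lowest AML-WT-c-kit- library. Its log2 differences were -1.09 (SE 0.29) between the c-kit+ groups and -1.12 (SE 0.32) between the WT populations. Neither call was stable, and both were lost with no filter on low values. The first was lost without AML-WT-c-kit+ library 2 (-0.78) and without library 1 (-1.05) or 2 (-0.93) of those labelled AML-IRF7-/--c-kit+. The second was lost without library 2 (-0.92) or 3 (-1.09) of AML-WT-c-kit- or library 1 (-0.95) or 3 (-0.98) of AML-WT-c-kit+, and after median centring (-0.97) or quantile normalization (-0.95). Junb lies at chr8:84974484-84978718 on the minus strand, 311631 bases from Ier2.

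The loci of Jun, Junb and Jund overlap Junos, Prdx2 and Gm11175 on the other strand. The labelled kit does not mark strand, so reads from bases that both genes of a pair use cannot be told apart.

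Fos and Fosl2 had their larger difference between the WT populations. Fos encodes a protein that cannot homodimerize and binds DNA only as the partner of a JUN protein. Fos was 298, 806 and 751 TPM across AML-WT-c-kit-, 106, 165 and 67.9 TPM across AML-WT-c-kit+, and 54.5, 33 and 128 TPM across libraries with the label AML-IRF7-/--c-kit+. The AML-WT-c-kit- libraries stood above all others, while the c-kit+ groups overlapped because library 3 labelled AML-IRF7-/--c-kit+ exceeded 2 of the AML-WT-c-kit+ libraries. The log2 differences were -2.41 (SE 0.46) between the WT populations and -0.77 (SE 0.52, not called) between the c-kit+ groups. Without library 3 labelled AML-IRF7-/--c-kit+ the latter was -1.30 and was called. Fos lies at chr12:85473890-85477273 on the plus strand.

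Fosl2, which encodes the FOS-related protein FRA2, had the smallest spread of the members. Its levels were 94.4, 75.5 and 90 TPM across AML-WT-c-kit-, 18.7, 23.6 and 19.5 TPM across AML-WT-c-kit+, and 7.74, 12.5 and 9.5 TPM across libraries with the label AML-IRF7-/--c-kit+, so the groups did not overlap. Between the WT populations the log2 difference was -2.02 (SE 0.12). Between the c-kit+ groups it was -1.0 (SE 0.17), just short of the threshold before rounding and so not called, and it was called without library 1 (-1.06) or 3 (-1.03) of AML-WT-c-kit+, without library 2 (-1.16) of those labelled AML-IRF7-/--c-kit+, with 0.1 TPM added (-1.06), and after median centring or quantile normalization (-1.08 each). Fosl2 lies at chr5:32135801-32157842 on the plus strand.

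Fosb, a FOS protein that is induced together with Fos, overlapped between groups in each comparison. It measured 10.1, 58.1 and 44.4 TPM across AML-WT-c-kit-, 15.9, 36.5 and 17.9 TPM across AML-WT-c-kit+, and 3.44, 2.64 and 18.7 TPM across libraries with the label AML-IRF7-/--c-kit+. Libraries 1 and 2 of the last group lay below all WT libraries and library 3 lay among them. None of its differences was called, at -1.74 (SE 0.66) between the c-kit+ groups, -0.44 (SE 0.65) between the WT populations and -2.18 (SE 0.84) when libraries with the label AML-IRF7-/--c-kit+ were set against AML-WT-c-kit-. Without library 3 labelled AML-IRF7-/--c-kit+ the first and the last were -2.51 and -2.95 and were called, and the last was also called without AML-WT-c-kit- library 1 (-2.92). Fosb lies at chr7:19302696-19310051 on the minus strand.

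The balance of the 2 families differed between the groups. JUN family TPM divided by FOS family TPM was 1.09, 1.07 and 1.00 in AML-WT-c-kit-, 3.23, 3.25 and 2.77 in AML-WT-c-kit+, and 1.28, 1.23 and 0.928 in libraries with the label AML-IRF7-/--c-kit+. The ratio of AML-WT-c-kit+ stood apart from both other groups, which overlapped. The JUN genes summed to 437 to 1004 TPM per library across AML-WT-c-kit-, 291 to 731 TPM across AML-WT-c-kit+ and 59.2 to 145 TPM across libraries with the label AML-IRF7-/--c-kit+. In the same order the FOS genes summed to 402 to 940, 105 to 225 and 48.2 to 156 TPM. The c-kit+ groups thus did not overlap in the JUN sum and did in the FOS sum.

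Within the JUN family the most abundant gene was not the same in all groups. Jun made up 48.3% ± 6.39 of JUN family TPM across AML-WT-c-kit- and 55.1% ± 8.68 in AML-WT-c-kit+, but 21.8% ± 12.7 in libraries with the label AML-IRF7-/--c-kit+ (SD, n = 3). Junb took the first place there, with 59.1% ± 11.3, against 34.1% ± 6.09 in AML-WT-c-kit- and 25% ± 6.01 in AML-WT-c-kit+. The share of Jund was 17.7%, 19.8% and 19.1% in the same order and overlapped in all groups. Fos kept the largest share of the FOS family in each library, between 64.5% and 85.8%. Fosb had a larger share in AML-WT-c-kit+ (11.3% to 17%) than in AML-WT-c-kit- (2.5% to 6.19%). In libraries with the label AML-IRF7-/--c-kit+ it was 5.24%, 5.48% and 12%, which overlapped both ranges.

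**Figure D3:**
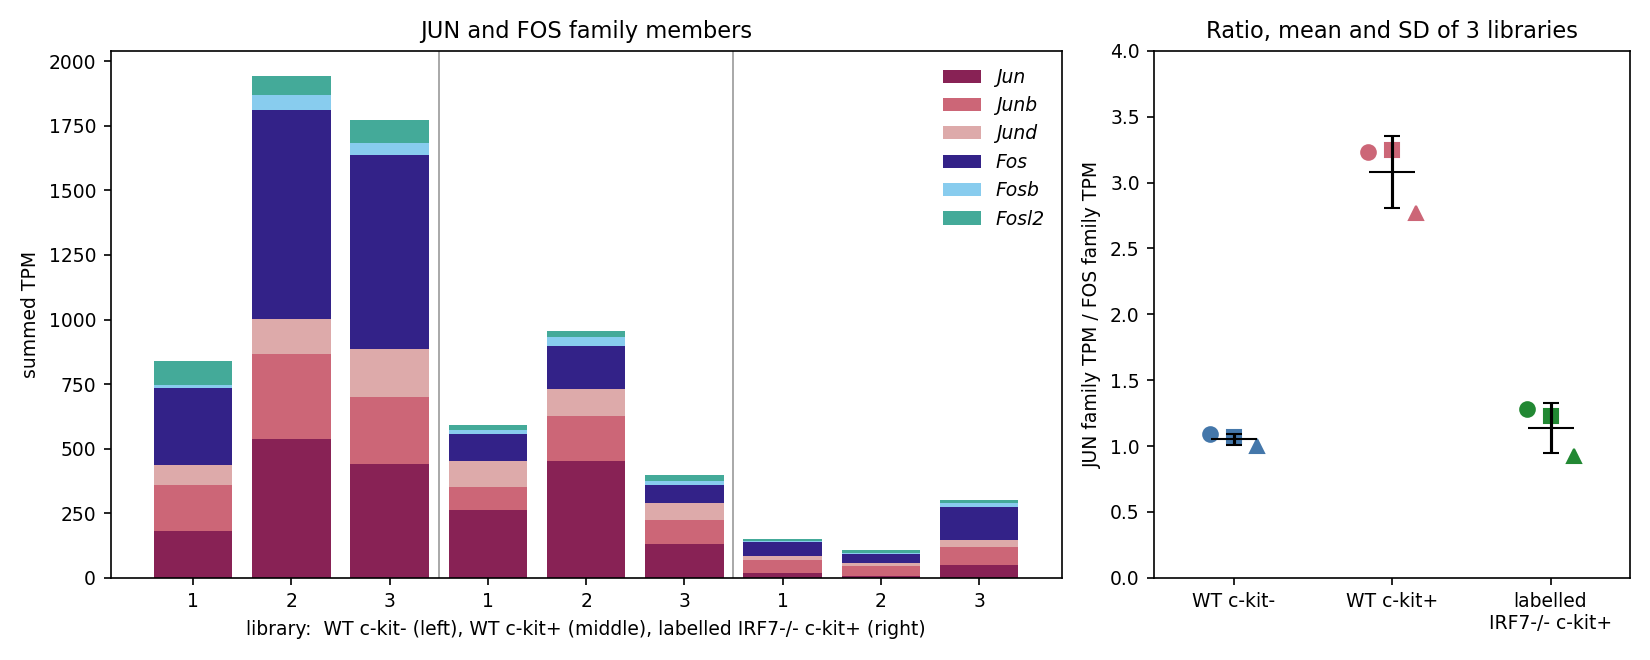
Left, summed TPM of the JUN and FOS family members (stacked bars from 0) in each of the 9 libraries; right, the ratio of JUN to FOS family TPM per library, with the mean and SD of 3 libraries in black. The JUN sums are lowest in the right-hand group (59.2 to 145 TPM), while the ratio is near 1 in both outer groups and 2.77 to 3.25 in AML-WT-c-kit+.

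Egr1, a zinc finger factor that is among the fastest responders to ERK signalling, had, like Jun, its larger difference between the c-kit+ groups. It stood at 38.8, 227 and 122 TPM across AML-WT-c-kit-, 84, 177 and 44.6 TPM across AML-WT-c-kit+, and 9.87, 3.99 and 39.1 TPM across libraries with the label AML-IRF7-/--c-kit+. The c-kit+ groups were separated by a narrow gap, from 39.1 to 44.6 TPM, and library 1 of AML-WT-c-kit-, at 38.8 TPM, lay just under it. The log2 differences were -2.77 (SE 0.81) between the c-kit+ groups and -0.23 (SE 0.72, not called) between the WT populations. The first call was lost without library 1 (-2.80) or 2 (-2.26) of AML-WT-c-kit+ and without library 1 (-2.64) or 2 (-2.08) of those labelled AML-IRF7-/--c-kit+, and with no filter on low values. The difference of these libraries from AML-WT-c-kit- was -3.0 (SE 0.89) and was called, but not without library 2 (-2.43) or 3 (-2.88) of AML-WT-c-kit- or library 1 (-2.87) or 2 (-2.31) of those labelled AML-IRF7-/--c-kit+, nor with no filter.

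Egr2, a relative of Egr1 with a role in macrophage and lymphoid cells, was low throughout. Its levels were 1.53, 5.92 and 2.68 TPM across AML-WT-c-kit-, 0.55, 3.16 and 0.94 TPM across AML-WT-c-kit+, and 0.67, 0.29 and 1.13 TPM across libraries with the label AML-IRF7-/--c-kit+. The c-kit+ groups overlapped, and most of their libraries were near or below 1 TPM. Against AML-WT-c-kit- libraries with the label AML-IRF7-/--c-kit+ differed by -1.27 (SE 0.38), a call lost without library 2 (-0.88) or 3 (-1.33) of AML-WT-c-kit- or library 1 (-1.27) or 2 (-1.09) of the other group, and with no filter. Egr2 lies at chr10:67535475-67542188 on the plus strand.

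Ier2, a small nuclear protein of the immediate early response, differed little between the WT populations. Its levels were 273, 631 and 519 TPM across AML-WT-c-kit-, 434, 634 and 276 TPM across AML-WT-c-kit+, and 122, 105 and 177 TPM across libraries with the label AML-IRF7-/--c-kit+. The WT groups covered almost the same range and the remaining group lay wholly below it. The log2 difference was -1.68 (SE 0.32) between the c-kit+ groups and -0.08 (SE 0.39, not called) between the WT populations, and the latter turned positive after median centring (0.08), after quantile normalization (0.06), and without library 2 (0.17) or 3 (0.03) of AML-WT-c-kit- or library 3 (0.23) of AML-WT-c-kit+. Ier2 is a single-exon gene at chr8:84661331-84662852 on the minus strand.

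Libraries of one group differed more for these genes than for most. In AML-WT-c-kit+ library 2 was the highest for 10 of the 10 members. In AML-WT-c-kit- library 1 was the lowest for 9, and among libraries with the label AML-IRF7-/--c-kit+ library 3 was the highest for 9 of them, with Fosl2 as the exception in both and Atf3 at the same printed level in library 1. The median member differed between the highest and the lowest library by a ratio of 2.85 in AML-WT-c-kit-, 2.3 in AML-WT-c-kit+ and 3.61 in libraries with the label AML-IRF7-/--c-kit+, where the median of all genes with a mean of 5 TPM or more was 1.18, 1.17 and 1.14. A ratio of 2 or more was seen for 8, 7 and 7 of the 10 members, and for 4.79%, 3.26% and 3.18% of those genes. Egr2 in each group, and Atf3 among libraries with the label AML-IRF7-/--c-kit+, were below 5 TPM, and of the members that reached it 7 of 9, 6 of 9 and 5 of 8 had such a ratio. The extremes were Egr1, with 9.8 between library 3 and library 2 of those labelled AML-IRF7-/--c-kit+, and Fosl2, with 1.25 in AML-WT-c-kit-. This pattern was looked for after the levels had been seen, and the labels name no batch or sorting day.

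**Figure D4:**
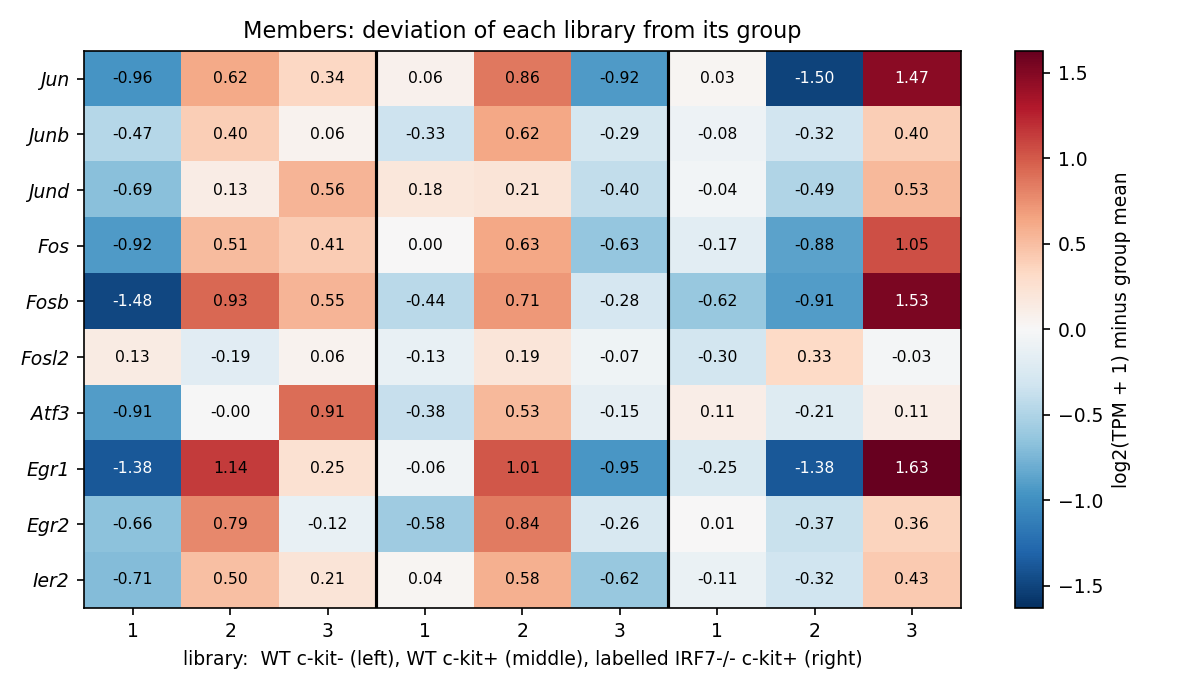
Deviation of each library from the mean of its group in log2(TPM + 1) (colour and printed value) for the 10 members (rows) in the 9 libraries (columns). Columns lean to one sign: library 2 of AML-WT-c-kit+ is above its group mean for 10 of the 10 members, and the row of Fosl2 is pale.

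Most of 26 other immediate early genes on a fixed list fell as well. Between the c-kit+ groups 24 were tested, 19 fell in libraries with the label AML-IRF7-/--c-kit+ and 1 rose, with a median difference of -1.96 (0.12 over all genes tested, of which 5.39% were called lower). Of the 19, Egr3, Nr4a2, Klf4 and Cxcl2 passed the filter only through AML-WT-c-kit+. Of the 20 genes with 1 TPM or more in a library of both groups, 15 fell. When libraries with the label AML-IRF7-/--c-kit+ were set against AML-WT-c-kit-, 23 were tested, 19 fell and 2 rose (median -2.79). Of all genes tested there, 11.9% were called lower and 8.4% higher. The list was drawn up with earlier results of these data known.

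Among them Klf2, a Krüppel-like factor of quiescent leukocytes, had the largest difference on the log2(TPM + 1) scale. It was 118, 103 and 45 TPM across AML-WT-c-kit+ and 3.01, 5.22 and 4.81 TPM across libraries with the label AML-IRF7-/--c-kit+, a log2 difference of -3.98 (SE 0.37, limma adjusted p = 0.000389). Nr4a1, an orphan nuclear receptor, went from 33.7, 56 and 27 TPM to 1.39, 1.78 and 1.75 TPM (-3.86, SE 0.25, limma adjusted p = 0.000111). The groups were far apart for both. By mean TPM, Nr4a1 (38.9 against 1.64) and Egr3 (2.19 against 0.0333) fell by larger ratios than Klf2 (88.7 against 4.35). Egr3 was at 0.04, 0 and 0.06 TPM across libraries with the label AML-IRF7-/--c-kit+, so its ratio is loosely determined. Btg2, an antiproliferative gene, differed by -2.82 (SE 0.43, limma adjusted p = 0.00242), and Nfkbiz, an atypical IκB protein, by -2.61 (SE 0.23, limma adjusted p = 0.000307). The gene that rose was Gadd45b, a stress-induced gene of the GADD45 family, which was 25.9, 26.2 and 24.3 TPM across AML-WT-c-kit+ and 92.3, 71 and 91.6 TPM across libraries with the label AML-IRF7-/--c-kit+ (1.69, SE 0.11, limma adjusted p = 0.000105). It was named after its values were seen. The 4 tested genes that were not called were Myc (0.25), Rhob (-0.58), Tnfaip3 (-0.73) and Sgk1 (-0.77).

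Between the WT populations fewer genes of the same list were called. Of 24 tested, 8 fell in AML-WT-c-kit+ and 2 rose, with a median of -0.78 (-0.08 over all genes tested). Of all genes tested, 9.61% were called lower and 4.83% higher. At an unadjusted p under 0.05 by limma, 10 of the 24 were lower and 3 higher. Klf4, a factor of monocytic differentiation, was 138, 131 and 131 TPM across AML-WT-c-kit- and 4.99, 7.14 and 7.85 TPM across AML-WT-c-kit+ (-4.16, SE 0.15, limma adjusted p = 1.08e-05). Nr4a1 was 108, 222 and 234 TPM across AML-WT-c-kit-, a difference of -2.23 (SE 0.37, limma adjusted p = 0.00327). Gadd45b rose here too (1.28, SE 0.15, limma adjusted p = 0.000656), as did Ier3 (1.28, SE 0.28, limma adjusted p = 0.0107), both named after their values were seen. The listed genes also leaned to single libraries. Of those with a mean of 5 TPM or more, library 1 of AML-WT-c-kit- was the lowest for 20 of 23, library 3 of AML-WT-c-kit+ for 18 of 21 (with library 2 the highest for 14), and library 2 of those labelled AML-IRF7-/--c-kit+ for 10 of 14.

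**Figure D5:**
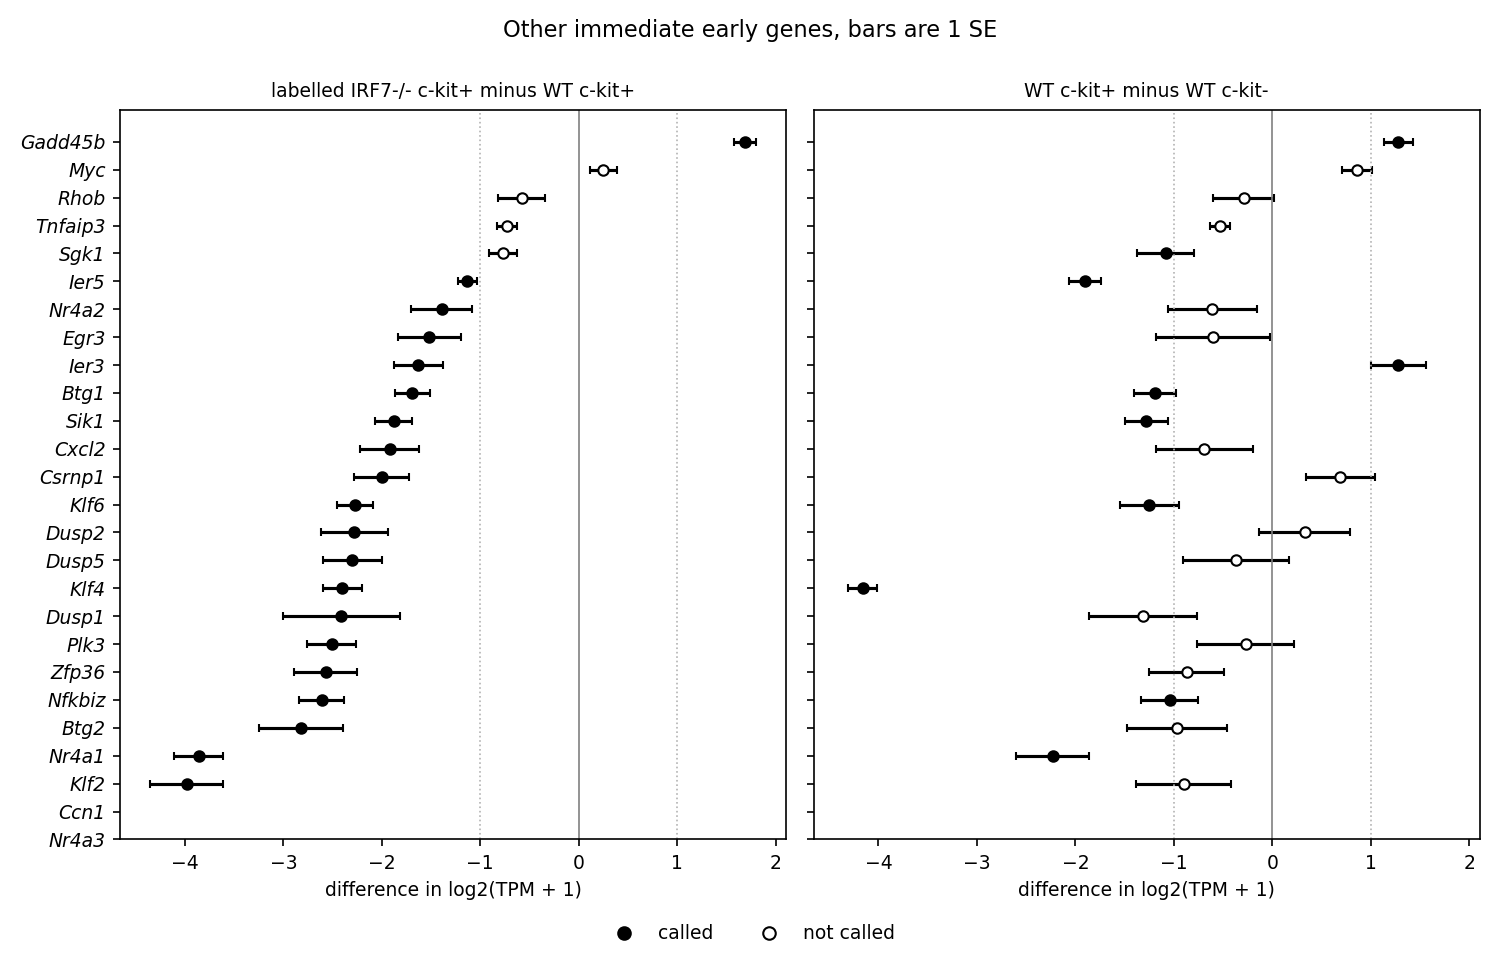
Difference in log2(TPM + 1) between the c-kit+ groups (left) and between the WT populations (right) for 26 other immediate early genes (y axis; bars are 1 SE of limma from 3 libraries against 3; filled points are called). On the left 19 genes are called below 0 and Gadd45b above it; on the right 8 are called below and 2 above, and Ccn1 and Nr4a3 did not pass the filter in either.

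The other bZIP genes of the AP-1 group did not move as one. Of 12 listed, 9 were tested between the c-kit+ groups, and 2 fell and 1 rose in libraries with the label AML-IRF7-/--c-kit+. Of all genes tested, 5.39% were called lower and 6.3% higher. The median of the list was -0.36, and at an unadjusted p under 0.05 by limma 6 were lower and 2 higher. Fosl1, which encodes FRA1, was 2.28, 2.86 and 2.31 TPM across AML-WT-c-kit+ and 0.45, 0 and 0.46 TPM with the label AML-IRF7-/--c-kit+ (-1.44, SE 0.20, limma adjusted p = 0.00166), and it passed the filter only through AML-WT-c-kit+. Maff, a small MAF protein, differed by -1.17 (SE 0.18, limma adjusted p = 0.00268). Batf2 was higher, at 4.89, 4.44 and 3.95 TPM against 1.3, 1.64 and 1.47 TPM (1.13, SE 0.13, limma adjusted p = 0.000888). Between the WT populations 12 were tested, 2 fell and 2 rose in AML-WT-c-kit+, beside 9.61% called lower and 4.83% called higher of all genes. Batf2 fell by 1.33 on the log2 scale (SE 0.15, limma adjusted p = 0.000598). Jdp2, a repressor that pairs with JUN, rose (1.15, SE 0.26, limma adjusted p = 0.0133), as did Fosl1 (1.07, SE 0.30, limma adjusted p = 0.0265), the latter 2 named after their values were seen.

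The kinases and promoter-bound factors that act before the immediate early genes did not pass the threshold in either of the first 2 comparisons. Of 16 listed and tested by limma, 0 were called between the c-kit+ groups and 0 between the WT populations. Of all genes tested, 5.39% were called lower and 6.3% higher in the first comparison, and 9.61% and 4.83% in the second. Few of 16 genes would be called at such shares, so nothing is read from the counts of 0. At an unadjusted p under 0.05 by limma, 3 of the 16 were higher and 2 lower in the first comparison. In the second 1 was higher and 9 were lower. Their medians were -0.04 and -0.24. When libraries with the label AML-IRF7-/--c-kit+ were set against AML-WT-c-kit-, 1 of the 16 was called lower and 0 higher. Of all genes tested there, 11.9% were called lower and 8.4% higher. At an unadjusted p under 0.05 by limma, 12 of the 16 were lower and 2 higher, with a median of -0.37. The gene called was that of the ETS factor Elk3, named after its values were seen (-1.34, SE 0.10, limma adjusted p = 7.48e-05). Among 6 tested of 8 feedback brakes, Dusp6, the phosphatase of ERK, fell between the c-kit+ groups from 26.6, 28.3 and 30.1 TPM to 2.37, 5.44 and 2.54 TPM (-2.79, SE 0.25, limma adjusted p = 0.000329), and none was called higher by limma (2 at an unadjusted p under 0.05). Between the WT populations 1 of the 6 was called, Spry2, which rose in AML-WT-c-kit+ (1.51, SE 0.11, limma adjusted p = 9.56e-05).

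Of 10 integrated stress response genes around Atf3, 9 were tested. Between the c-kit+ groups 2 fell, Ppp1r15a, a subunit that directs dephosphorylation of eIF2α (-2.90, SE 0.44, limma adjusted p = 0.00247), and Gadd45a (-1.60, SE 0.19, limma adjusted p = 0.00091). Of all genes tested, 5.39% were called lower and 6.3% higher. At an unadjusted p under 0.05 by limma 6 of the 9 were lower and 2 higher. The median of the list was -0.62, against 0.12 over all genes tested. Among those not called for size was Atf4 (-0.62, SE 0.15, limma adjusted p = 0.0148), which encodes the main effector of this response. So were Ddit3 (-0.86, SE 0.16, limma adjusted p = 0.00505) and Ddit4 (-0.74, SE 0.21, limma adjusted p = 0.0259). Higher, but also not called for size, was Atf5 (0.80, SE 0.08, limma adjusted p = 0.000503). Atf5 stood at 12.4, 12.8 and 13.2 TPM across AML-WT-c-kit+ and 21.6, 22.8 and 24.6 TPM across libraries with the label AML-IRF7-/--c-kit+. These genes were named after their values were seen. Ppp1r15a was 42.9, 67.4 and 26 TPM across AML-WT-c-kit+ and 4.54, 2.61 and 8.81 TPM across libraries with the label AML-IRF7-/--c-kit+. Between the WT populations Asns, asparagine synthetase, rose in AML-WT-c-kit+ from 3.68, 4.29 and 6.5 TPM to 22.5, 17.7 and 18.2 TPM (1.84, SE 0.20, limma adjusted p = 0.000494). Chac1 rose as well (1.22, SE 0.26, limma adjusted p = 0.0104) and Sesn2, named after its values were seen, fell (-1.13, SE 0.12, limma adjusted p = 0.000527). Asns was 39.5, 30.6 and 35.3 TPM across libraries with the label AML-IRF7-/--c-kit+, a difference of 0.82 from AML-WT-c-kit+ (SE 0.13, limma adjusted p = 0.00247) that is under the size needed for a call.

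Of 10 heat shock genes 9 were tested, and between the c-kit+ groups 2 fell and 0 rose. Of all genes tested there, 5.39% were called lower and 6.3% higher. At an unadjusted p under 0.05 by limma 3 of the 9 were higher and 3 lower. The median of the list was 0.02, against 0.12 over all genes tested. Those higher were Hspe1 (0.56), Hspd1 (0.38) and Hsp90aa1 (0.25), named after their values were seen and not called. Hspa1a was 10.5, 14.3 and 79.5 TPM across AML-WT-c-kit+ and 2.64, 1.26 and 5.23 TPM across libraries with the label AML-IRF7-/--c-kit+ (-2.70, SE 0.75, limma adjusted p = 0.0242). Hspa1b differed by -2.45 (SE 0.80, limma adjusted p = 0.0415). The pair are near-identical copies, so the split of reads between them is uncertain. Both were highest in library 3 of AML-WT-c-kit+, where 10 of the 10 members were below their group mean, and in AML-WT-c-kit- they were highest in library 1, at 54.5 TPM for Hspa1a against 15.3 and 18.2 TPM in the others. Their part in the members' library pattern was not tested. None of the 9 was called between the WT populations by limma (1 higher and 3 lower at an unadjusted p under 0.05). Of all genes tested there, 9.61% were called lower and 4.83% higher.

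The genes with the most similar profile over the 9 libraries were found for each member among 10284 genes with a mean of 5 TPM or more, as the smallest root mean square difference of log2(TPM + 1) after centring each gene on its mean. For Atf3 they were Nr4a1 (0.48), the chemokine gene Ccl3 (0.50) and the inhibitory receptor gene Lilrb4a (0.53), against a range of 6.87 for Atf3 itself. For Jun they were Ppp1r15a (0.53), Egr1 (0.60) and the phosphatase gene Dusp1 (0.63). Egr1 was nearest to Fosb (0.57), Gm10705 (0.58) and Ppp1r15a (0.59), and Fosb to Egr1 (0.57), Ighv1-64 (0.60) and Ier2 (0.62). Members thus appeared among the nearest genes of Jun, Egr1 and Fosb. Ier2 had Ptp4a1 (0.23), Pnrc1 (0.26) and Gm17275 (0.27).

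Junb was nearest to Jag2 (0.26), Cdkn1a (0.26) and Bbc3 (0.33), and Jund to Plk3 (0.29), Osm (0.30) and Adamts13 (0.34). Fos had AC167363.2 (0.53), Ier5 (0.61) and Ifitm1 (0.61), Egr2 had Ppm1k (0.34), Gm10252 (0.36) and Ap1ar (0.38), and Fosl2 had Apba1 (0.13), Slc26a11 (0.15) and Hdac9 (0.19). The values for Fosl2 are the smallest of all. These points share libraries and groups, so that any gene with the same order of groups comes close. AC167363.2, Gm10252 and Gm17275 overlap Cdkn1a, Ftl1 and H3f3a on the other strand, and Gm10705 and Ighv1-64 belong to a pseudogene class and to a family of similar sequences, which makes their own levels uncertain.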

How the data were processed

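The authors deposited 1 table of TPM per Ensembl gene and library; no header names the unit, which was taken from library sums of 987468 to 992231. Libraries were made with the Illumina TruSeq RNA kit per the labels, although the study's text calls the assay a microarray. Aligner, genome build and filters are not given in the sources used here. A few abundant genes can shift the TPM of all others: the 10 most abundant genes made up 13.1% to 17.3% of AML-WT-c-kit+ libraries and 9.39% to 10.3% of the others.

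Members and gene lists were chosen with earlier results of these data known. limma 3.58.1 (R 4.3.3; lmFit, eBayes with trend) was fitted on log2(TPM + 1) to each pair of groups alone, keeping genes that reached 1 TPM in 3 or more of the 6 libraries, and p-values were adjusted over all genes tested. The fit was tested on simulated data. From each list the 4 called genes with the largest change between the c-kit+ groups and the 2 between the WT populations were named. Of the genes this rule gives, 1 is not reported here. Alternatives changed the filter, pseudocount, normalization, samples in the fit and pairing, and left out each library. The column of AML-WT-c-kit+ library 3 has 1 digit too many and was matched by its name. Ddit3 has 2 rows, of which the higher was used. Loci are from GENCODE M21 (GRCm38), whose identifiers the table uses.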

Additional observations from a re-analysis of the deposited data

How the results depend on the processing

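Under the alternatives 369 values were recomputed for the members' differences, and 365 moved by less than 1 SD between libraries. Other filters, the fit of all 9 libraries and the replicate block leave a difference as it is. Leaving out 1 of 3 libraries cannot move it by 1 SD. Only the pseudocount and the normalizations could, so the count of 365 says little about stability. No called difference changed sign. With 0.1 TPM added, Atf3 went to -4.55 between the c-kit+ groups and -7.49 against AML-WT-c-kit-, and Egr2 to -2.07 in the latter. After quantile normalization Fosl2 was -1.85 between the WT populations. In 8 cases a difference that was not called between the WT populations changed sign, all for Fosb, Egr1 or Ier2. Between the c-kit+ groups 1548 genes were called, and 1015 with a filter of 5 TPM, which tests fewer genes. Members called there numbered 3 to 8 when 1 library was left out, 3 without AML-WT-c-kit+ library 2 and 8 without library 3 labelled AML-IRF7-/--c-kit+, against 6 with all. Left-out fits gave 3 to 4 members between the WT populations (4 with all) and 6 to 10 against AML-WT-c-kit- (9 with all). With no filter on low values 4, 3 and 7 members were called in the 3 comparisons. Of the 82 other listed genes 28 were called between the c-kit+ groups, and 22 to 27 with 1 library left out.

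The labels give each group the numbers 1 to 3 without saying what they share. Deviations of same-numbered libraries correlated at -0.0712 to 0.237 across genes, so the numbers were not taken to pair the samples. In a fit with a replicate block 1549 genes were called between the c-kit+ groups, 1950 between the WT populations (1916 without it) and 2749 against AML-WT-c-kit- (2738 without it). Members called were 5, 4 and 10 in that fit, since Egr1 was lost in the first and Fosb gained in the last.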
